A study of Mus musculus with 16 samples.

Results

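The tumour necrosis factor (TNF) superfamily was compared between murine brown adipose tissue (BAT, interscapular) and subcutaneous white adipose tissue (sWAT) of LACA mice. Members were taken by symbol from the annotation of the Affymetrix mouse genome array: probe sets that name a single gene beginning with Tnfsf or Tnfrsf, or named Tnf, Cd40, Fas, Fasl or Ngfr. This gave 32 genes with 56 probe sets, out of 18194 genes and 45101 probe sets on the array. Of the 32, 9 were ligands with 16 probe sets and 22 were receptors with 38 probe sets. The remaining gene, Tnfsf13os, is named as the opposite strand of Tnfsf13 and is neither ligand nor receptor. Tnfsf12, Tnfsf13, Tnfsf15, Tnfsf18 and Tnfrsf26 had no probe set that names them alone and were not analysed here. The BAT group and the sWAT group each held 4 replicates with 2 arrays per replicate, 16 arrays in all. The animals of both groups were labelled as male, weighed 25 ± 3 g, ate standard chow and received no treatment, and the methods state that both tissues were removed from each animal. Values are log2 values after robust multi-array averaging and quantile normalization, relative to the median that a probe set had across the 16 arrays. They give differences between samples and not the level of one gene against another. Below, a value for a gene is the mean over its probe sets and over the 2 arrays of a replicate, and the difference is BAT minus sWAT. Its standard error (SE) comes from the limma fit on 4 replicates per tissue. That SE uses a variance drawn towards a value shared by all genes. A gene was called when its adjusted p, from limma with replicate numbers blocked, adjusted by Benjamini-Hochberg over the 18194 genes, was under 0.05.

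Ligands of this superfamily are mostly membrane proteins that act as trimers, and some of them are cut from the cell surface to act at a distance. Their receptors carry cysteine-rich repeats outside the cell and bind TNF receptor associated factors (TRAFs) or death domain adaptors inside it, which lead to NF-kB, to stress kinases or to caspases. Many members are known from lymphocytes and lymphoid organs, where they keep B cells alive and costimulate T cells. In adipose tissue the founding ligand Tnf is known for its effects on lipolysis and insulin action.

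Some libraries stood apart. Low 5′ signal was seen in 2 arrays, the second of BAT replicate 1 and the first of sWAT replicate 3, by the probe sets of Gapdh and Actb. Across all probe sets, which are not independent of one another, these replicates also agreed least between their 2 arrays, with r = 0.51 for BAT replicate 1 and r = 0.34 for sWAT replicate 3, while the other 6 replicates had 0.85 to 0.92. All samples were labelled male, but Xist, which is transcribed from the inactive X chromosome, was at 5.74, 6.26, 6.36 and −0.26 in BAT replicates 1 to 4, against −0.27 to −0.11 in sWAT. Eif2s3y, Uty and Kdm5d, which are Y-linked, were lower in BAT replicates 1 to 3 than in BAT replicate 4 and all sWAT replicates. The libraries labelled BAT replicates 1 to 3 therefore went against their sex label, while no sWAT library did. In the differences over all 4 replicates, tissue and sex therefore cannot be fully told apart. Those numbers also cannot be taken to pair tissues of the same animal. Values from replicate 4 alone are given beside the members at least 2-fold lower. Each of those values sets 1 BAT sample against 1 sWAT sample, has no test and implies no shared animal. The tissue labels were borne out by the markers: 7 of 7 brown adipocyte markers were higher in BAT, against 21% of all genes. Ucp1, the uncoupling protein of thermogenesis, was higher by 7.58 ± 0.49 on the log2 scale (adjusted p = 8.5e-05). The mean of these 7 markers was 1.51 in BAT replicate 4, below the 3.29 to 3.40 of BAT replicates 1 to 3. Of the BAT replicates, replicate 4 also had the highest mean over macrophage markers (0.26) and skeletal muscle fibre markers (3.98).

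Superfamily genes that passed the test were mostly lower in BAT. Of the 32 members, 13 were lower, 2 were higher and 17 were not called, against a background of 17.5% of all genes lower and 21% higher. At a fold of at least 2, 12 members were lower and none was higher, against 8% of all genes lower and 7.13% higher. Ligands and receptors shared this direction. Of the 9 ligands, 4 were lower and 5 were not called, and their median difference was −0.41. Of the 22 receptors, 9 were lower, 2 were higher and 11 were not called, with a median of −0.14. Among the 13 lower members and the 9 lower receptors is Tnfrsf1b, whose 2 probe sets were called in opposite directions. No single probe set of the 2 higher genes, Tnfrsf8 and Tnfrsf19, was called. The median over the 32 members was −0.21, whereas the median over all genes was 0.15. The values of the 2 tissues did not overlap in 14 members that were lower in BAT and in 2 that were higher, against 17.4% and 28% of all genes. In either direction this made 16 of 32 members, against 45.4% of all genes, so absence of overlap alone was near the background. These are counts and medians, without a test of the family as a whole. Since the arrays measured whole tissue, fewer cells of a type and less RNA per cell cannot be told apart.

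**Figure D1:**
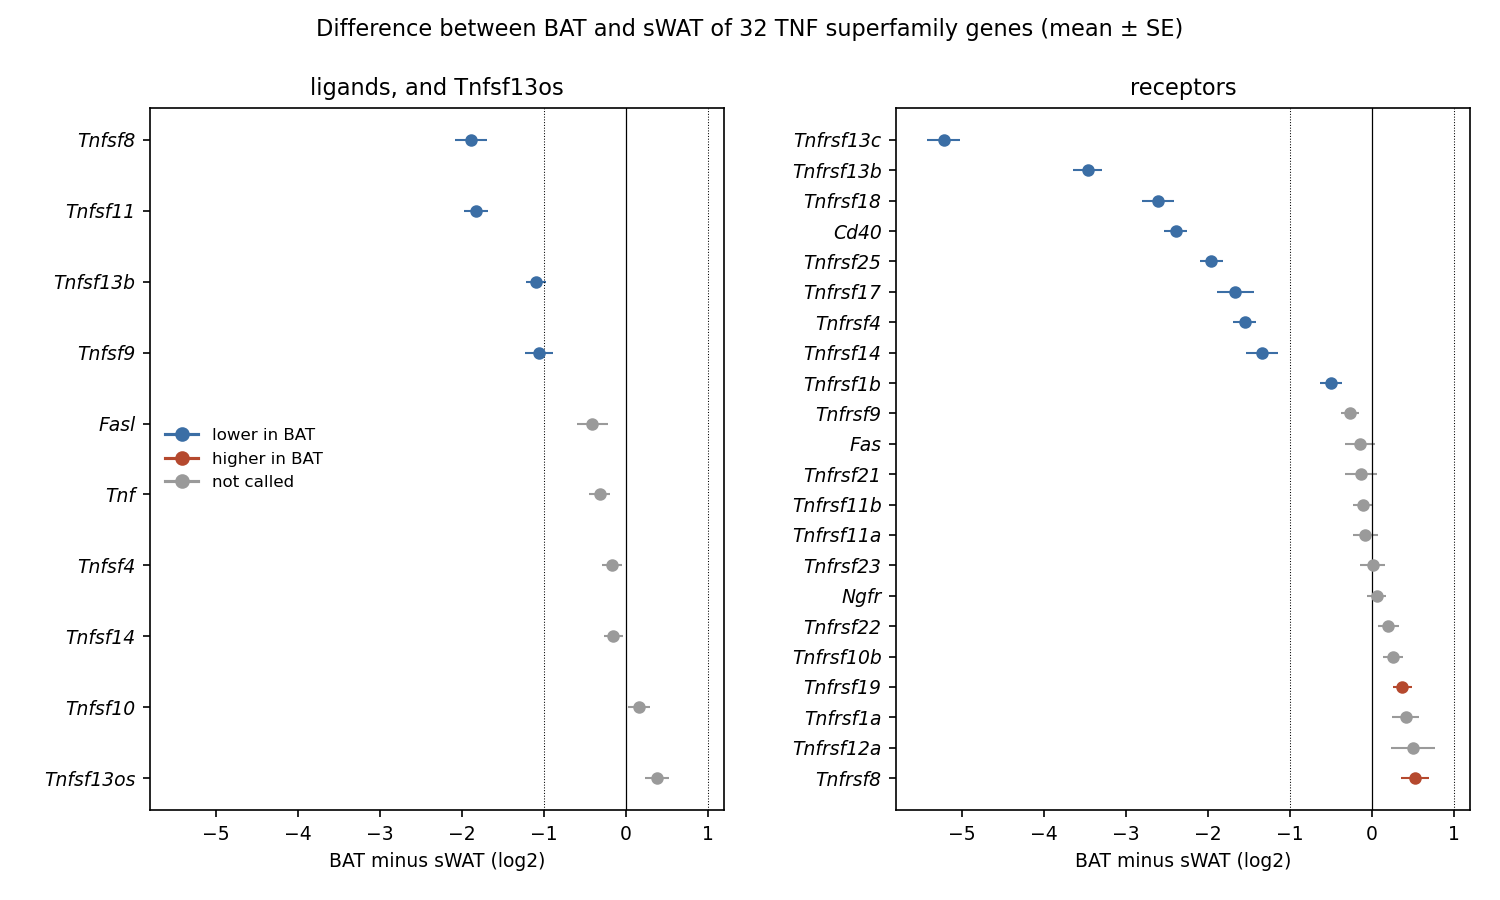
Difference between BAT and sWAT in log2 units (x axis, mean ± SE of the limma fit, 4 replicates per tissue) of the 9 ligands and Tnfsf13os on the left and the 22 receptors on the right, with dotted lines at a 2-fold difference. The 12 genes left of the dotted line at −1 were lower in BAT, with Tnfrsf13c at −5.22 the farthest, and the 2 genes called higher, Tnfrsf8 and Tnfrsf19, lay within 2-fold.

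The receptors of B cell survival were lower in BAT. All 3 measured receptors of this kind were lower by more than 2-fold, against 8% of all genes. Their median difference was −3.46. Tnfrsf13c, the BAFF receptor of mature B cells, was at −2.59, −2.33, −2.57 and −2.91 in BAT replicates 1 to 4, against 2.73, 2.16, 3.08 and 2.50 in sWAT replicates 1 to 4. All BAT samples lay far below all sWAT samples, and the difference of −5.22 ± 0.20 (adjusted p = 2.1e-05) was 37.3-fold, the 10th lowest of all 18194 genes. Tnfrsf13b, which encodes TACI, a receptor of B cells and plasma cells for BAFF and APRIL, was at −1.81, −1.71, −2.07 and −0.90 in BAT, against 2.19, 1.51, 1.52 and 2.13 in sWAT. BAT replicate 4 was the highest of the BAT samples but still far under every sWAT sample, and the difference was −3.46 ± 0.18 (11.0-fold, adjusted p = 4.8e-05). Tnfrsf17, which encodes BCMA, the survival receptor of plasma cells, was at −0.70, −0.51, −1.07 and −0.39 in BAT, against 1.18, 1.24, 1.14 and 0.40 in sWAT. Its difference was −1.66 ± 0.23 (3.16-fold, adjusted p = 0.0015), with sWAT replicate 4 lowest among the sWAT samples. In replicate 4 alone the differences were −5.41 for Tnfrsf13c, −3.03 for Tnfrsf13b and −0.79 for Tnfrsf17. Only the last was under 2-fold there.

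The starts of these 3 genes are shown because they share a role and were all lower. Each line gives the 150 bases that precede the transcription start, 5′ to 3′ on the gene's strand, from RefSeq on GRCm38.p6. Tnfrsf13c lies on the minus strand at chr15:82224381-82224530, Tnfrsf13b on the plus strand at chr11:61126605-61126754 and Tnfrsf17 on the plus strand at chr16:11313659-11313808. None of the 3 windows holds capitals, which mark a match to the NF-kB consensus.
Tnfrsf13c: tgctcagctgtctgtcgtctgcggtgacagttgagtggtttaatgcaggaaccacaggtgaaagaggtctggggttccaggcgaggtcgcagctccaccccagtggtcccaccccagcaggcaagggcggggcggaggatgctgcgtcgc
Tnfrsf13b: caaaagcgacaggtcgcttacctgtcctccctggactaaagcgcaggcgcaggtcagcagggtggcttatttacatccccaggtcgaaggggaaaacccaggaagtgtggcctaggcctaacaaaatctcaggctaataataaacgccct
Tnfrsf17: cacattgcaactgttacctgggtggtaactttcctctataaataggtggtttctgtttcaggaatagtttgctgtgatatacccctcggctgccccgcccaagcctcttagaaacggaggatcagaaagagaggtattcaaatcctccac

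Receptors of lymphocyte costimulation were mostly lower as well. Of 6 measured, 4 were lower by more than 2-fold, Tnfrsf8 was higher and Tnfrsf9 was not called. Over all genes, 8% were lower at that fold and 21% were higher at any fold. Tnfrsf18, known as GITR, a receptor of regulatory and activated T cells, was at −1.33, −1.37, −0.90 and −0.63 in BAT, against 1.82, 1.23, 1.05 and 2.10 in sWAT. The 2 tissues did not overlap, and the difference was −2.60 ± 0.20 (6.07-fold, adjusted p = 1.4e-04). Cd40, through which helper T cells activate B cells, dendritic cells and macrophages, was at −1.45, −1.33, −1.33 and −0.62 in BAT, against 1.25, 1.15, 0.94 and 1.50 in sWAT. The difference was −2.39 ± 0.14 (5.24-fold, adjusted p = 6.1e-05), and each of its 3 probe sets was lower, at −2.75, −2.43 and −2.0. Tnfrsf4, known as OX40, which prolongs the survival of activated T cells, was at −0.56, −0.55, −0.62 and −0.21 in BAT, against 1.03, 0.93, 0.58 and 1.71 in sWAT. This difference was −1.55 ± 0.14 (2.93-fold, adjusted p = 3.1e-04). Tnfrsf14, known as HVEM, which binds Tnfsf14 as well as the inhibitory receptor BTLA, was at −0.14, −0.89, −0.63 and 0.00 in BAT, against 0.93, 1.06, 0.19 and 1.48 in sWAT. BAT replicate 4 and sWAT replicate 3 lay closest to each other, and the difference was −1.33 ± 0.19 (2.52-fold, adjusted p = 0.0020). In replicate 4 alone, Tnfrsf18 differed by −2.72, Cd40 by −2.12, Tnfrsf4 by −1.92 and Tnfrsf14 by −1.48.

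**Figure D2:**
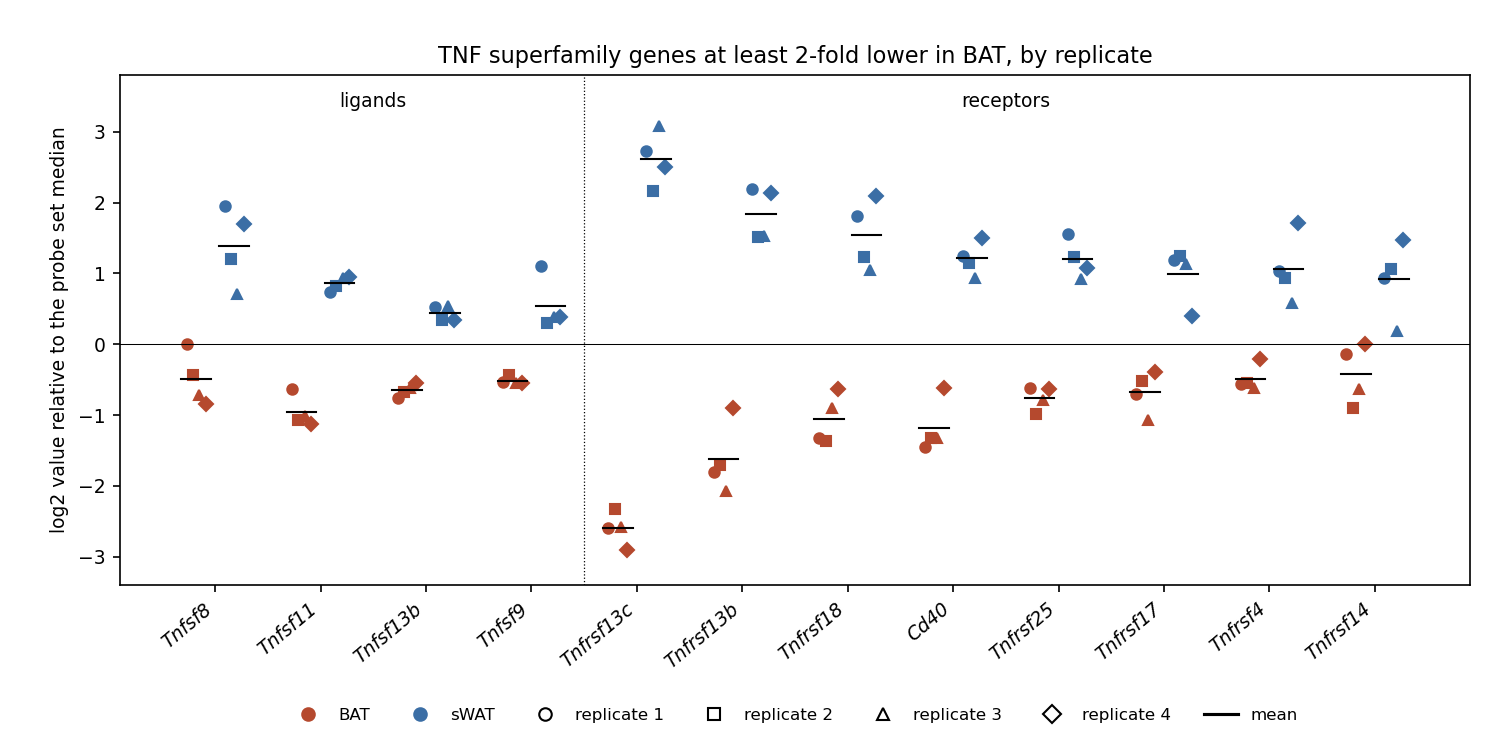
Log2 value relative to the probe set median (y axis) of the 12 members at least 2-fold lower in BAT, for BAT (red, left) and sWAT (blue, right), with one symbol shape per replicate number and a bar at the mean of 4. In each gene all BAT points lie under all sWAT points, with the widest gap in Tnfrsf13c and the narrowest in Tnfrsf14.

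The other 2 costimulation receptors lay close to zero. Tnfrsf8, known as CD30, a receptor of activated lymphocytes, was at 0.69, 0.34, 0.09 and 0.37 in BAT, against −0.35, −0.14, 0.03 and −0.17 in sWAT. The difference of 0.53 ± 0.17 (1.44-fold, adjusted p = 0.046) was the highest of the 32 members. BAT replicate 3 and sWAT replicate 3 lay close to each other, and the call ended without replicate 1 (0.36, adjusted p = 0.13), without replicate 2 (0.55, adjusted p = 0.12), without replicate 4 (0.53, adjusted p = 0.11) and on either set of arrays alone. Tnfrsf9, known as 4-1BB, a receptor of activated T cells, was at −0.07, −0.12, −0.14 and −0.07 in BAT, against 0.08, 0.12, 0.24 and 0.23 in sWAT. The tissues did not overlap, but the difference of −0.26 ± 0.11 was small and was not called (adjusted p = 0.11).

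Among 8 receptors of inflammation and cell death, 2 were lower and 6 were not called, with a median of −0.06. The share that was lower, 25%, was near the 17.5% of all genes. The 2 include Tnfrsf1b, whose probe sets were called in opposite directions. Tnfrsf25, the death receptor DR3 of T cells, was at −0.63, −0.99, −0.79 and −0.63 in BAT, against 1.56, 1.23, 0.92 and 1.07 in sWAT. Its difference was −1.96 ± 0.14 (3.88-fold, adjusted p = 1.3e-04), and −1.70 in replicate 4 alone. Tnfrsf1b, the TNF receptor of immune and endothelial cells, was at −0.39, −0.48, −0.43 and 0.02 in BAT, against 0.19, −0.14, 0.35 and 0.31 in sWAT. The groups overlapped, and the difference of −0.50 ± 0.13 (adjusted p = 0.024) lost its call without replicate 1 (−0.47, adjusted p = 0.072), without replicate 2 (−0.55, adjusted p = 0.067) and without replicate 3 (−0.40, adjusted p = 0.060). Tnfrsf1a, the widely expressed TNF receptor with a death domain, was at −0.13, 0.02, 0.10 and 0.37 in BAT, against −0.43, 0.04, −0.75 and −0.16 in sWAT. Its difference was 0.41 ± 0.16 and was not called (adjusted p = 0.083). The remaining receptors of this kind were also not called: Tnfrsf10b, the mouse TRAIL receptor, at 0.26 ± 0.12, the decoy receptors Tnfrsf22 at 0.20 ± 0.13 and Tnfrsf23 at 0.02 ± 0.15, Fas, the receptor that triggers apoptosis, at −0.15 ± 0.18, and Tnfrsf21, the death receptor DR6, at −0.13 ± 0.20.

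Receptors known from bone, nerve and tissue repair differed little. Of 5 measured, none was lower and 1 was higher, with a median of 0.06. The share that was higher, 20%, was near the 21% of all genes. Tnfrsf19, known as TROY, was at 0.32, 0.18, 0.08 and 0.16 in BAT, against −0.24, −0.17, −0.21 and −0.13 in sWAT. The tissues did not overlap and the difference was 0.37 ± 0.12 (1.29-fold, adjusted p = 0.041). The call ended without replicate 1 (0.31, adjusted p = 0.11), without replicate 2 (0.38, adjusted p = 0.15), without replicate 3 (0.40, adjusted p = 0.059) and without replicate 4 (0.40, adjusted p = 0.096). Tnfrsf12a, the receptor for TWEAK, was at −0.27, 0.56, 0.55 and 0.00 in BAT, against −0.33, 0.60, −1.01 and −0.43 in sWAT. Its difference of 0.50 ± 0.26 was not called (adjusted p = 0.16). The 2 arrays of BAT replicate 1 were at 0.62 and −1.15, the second of them of low 5′ signal. Without the arrays of low 5′ signal Tnfrsf12a was called higher, by 0.67 (adjusted p = 0.040), and also with the first arrays alone, by 0.88 (adjusted p = 0.033). Tnfrsf11a, which encodes RANK, differed by −0.07 ± 0.15, Tnfrsf11b, which encodes the secreted decoy osteoprotegerin, by −0.10 ± 0.12, and Ngfr, the low affinity neurotrophin receptor, by 0.06 ± 0.11. None of these was called.

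Of the 9 ligands, 4 were lower in BAT, each by more than 2-fold, against 8% of all genes. Tnfsf8, the ligand of Tnfrsf8, was at 0.00, −0.43, −0.72 and −0.84 in BAT, against 1.94, 1.20, 0.71 and 1.70 in sWAT. The difference was −1.89 ± 0.19 (3.70-fold, adjusted p = 4.4e-04), and −2.54 in replicate 4 alone. Tnfsf11, which encodes RANKL, the ligand that drives osteoclast formation and lymph node development, was at −0.64, −1.08, −1.02 and −1.12 in BAT, against 0.73, 0.83, 0.93 and 0.95 in sWAT. The sWAT replicates lay close to one another, and the difference was −1.82 ± 0.15 (3.54-fold, adjusted p = 1.8e-04). Tnfsf13b, which encodes BAFF, the survival factor of B cells, was at −0.76, −0.68, −0.61 and −0.54 in BAT, against 0.53, 0.34, 0.55 and 0.34 in sWAT. Its difference was −1.09 ± 0.12 (2.12-fold, adjusted p = 6.6e-04). Tnfsf9, the ligand of Tnfrsf9, was at −0.54, −0.43, −0.55 and −0.55 in BAT, against 1.10, 0.30, 0.38 and 0.38 in sWAT. The difference was −1.06 ± 0.17 (2.08-fold, adjusted p = 0.0030), and sWAT replicate 1 stood well above the other sWAT samples. Without replicate 1 it was still called, at −0.86 (adjusted p = 0.0065). In replicate 4 alone, Tnfsf11 differed by −2.07, Tnfsf13b by −0.88 and Tnfsf9 by −0.93.

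The other 5 ligands were not called. Tnf was at 0.02, −0.06, −0.21 and −0.07 in BAT, against 0.36, 0.03, 0.09 and 0.48 in sWAT. The tissues did not overlap, with BAT up to 0.02 and sWAT down to 0.03, and the difference was −0.32 ± 0.12 (adjusted p = 0.084). Without the arrays of low 5′ signal Tnf was called, at −0.35 (adjusted p = 0.038). Fasl, the ligand by which cytotoxic lymphocytes trigger apoptosis, was at −0.41, −0.53, −0.15 and 0.22 in BAT, against 0.63, −0.12, 0.13 and 0.11 in sWAT. The 2 tissues overlapped, with BAT replicate 4 above 3 of the sWAT samples, and the difference was −0.41 ± 0.19 (adjusted p = 0.13). Tnfsf4, the OX40 ligand of antigen presenting cells, was at 0.02, −0.07, −0.22 and 0.07 in BAT, against 0.16, 0.02, 0.17 and 0.11 in sWAT, a difference of −0.16 ± 0.12. Tnfsf14, known as LIGHT, differed by −0.15 ± 0.12, and Tnfsf10, which encodes TRAIL, by 0.16 ± 0.13. Tnfsf13os differed by 0.38 ± 0.15 (adjusted p = 0.084), and was called without replicate 3 at 0.51 (adjusted p = 0.040). Of 3 further probe sets that name several genes, the one shared by Tnfsfm13, Tnfsf13 and Tnfsf12 differed by −0.72 ± 0.21 (adjusted p = 0.041 over all probe sets) and cannot be assigned to 1 of them. The one shared by Tnfsfm13 and Tnfsf12 (0.05 ± 0.17) and the one shared by Tnfrsf22 and Tnfrsf23 (0.19 ± 0.14) were not called.

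The gene values hide disagreement between probe sets in part of the family. Of the 17 members with several probe sets, 9 held both signs, 5 held differing calls and 3 spread over more than 1 log2 unit. One probe set of Tnfsf11 was at −1.43, −2.0, −2.01 and −1.79 in BAT, against 1.37, 1.65, 1.91 and 1.48 in sWAT, a difference of −3.41 ± 0.20 (adjusted p = 8.3e-05 over all probe sets). Its other probe set differed by −0.24 ± 0.19 (adjusted p = 0.35), so the call of Tnfsf11 rests on the first. The 3 probe sets of Tnfsf13b differed by −2.37 ± 0.26, −0.97 ± 0.18 and 0.07 ± 0.13, the first 2 of them called. In Tnfrsf1b the 2 probe sets were called in opposite directions. One was lower by −1.55 ± 0.18 (adjusted p = 9.3e-04), and the other was higher by 0.55 ± 0.14 (adjusted p = 0.024). The gene value of Tnfrsf1b is therefore a mean of opposite differences and gives no direction for the gene. One probe set each of Tnfsf14 (−0.53 ± 0.13, adjusted p = 0.018) and Tnfrsf9 (−0.59 ± 0.13, adjusted p = 0.014) was called lower although the gene was not. The reverse held for Tnfrsf19 and Tnfrsf8, called higher as genes. None of the 3 probe sets of Tnfrsf19 was called (adjusted p = 0.060 to 0.13 over all probe sets). The only probe set of Tnfrsf8 was not called either (adjusted p = 0.061). Over all 56 probe sets of the family, 18 were lower, 1 was higher and 37 were not called, against 17.3% lower and 15.1% higher among all probe sets.

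**Figure D3:**
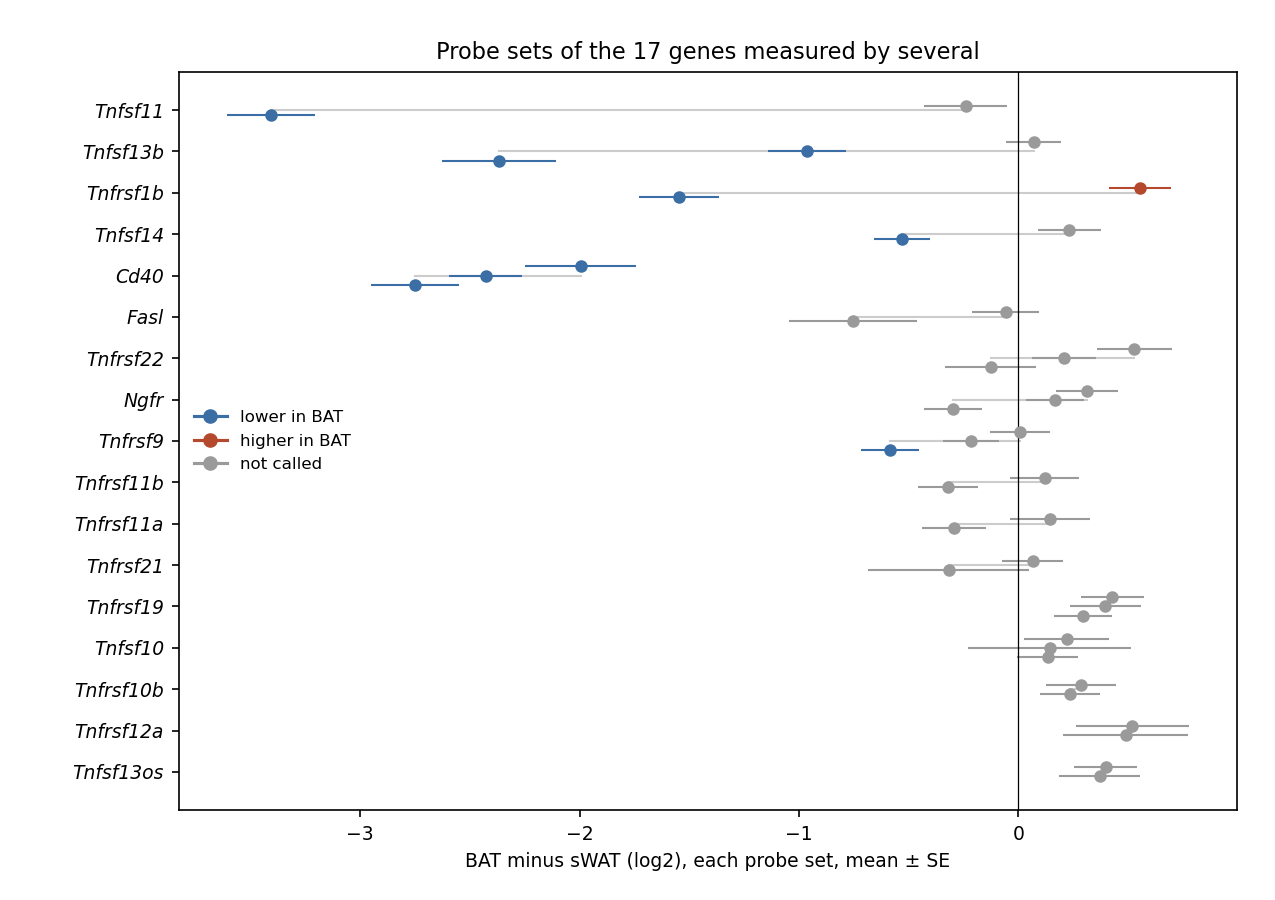
Difference between BAT and sWAT in log2 units (x axis, mean ± SE of the limma fit, 4 replicates per tissue) of each probe set of the 17 members that have several, ordered by the spread between them. Tnfsf11, Tnfsf13b and Tnfrsf1b spread over more than 1 log2 unit, and Tnfrsf1b has probe sets called in both directions.

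Family members that carry other symbols were read beside them. Ltb, which encodes lymphotoxin beta, needed for lymph node formation, was at −1.88, −1.90, −0.97 and −1.27 in BAT, against 3.24, 2.95, 2.15 and 3.25 in sWAT. Its difference was −4.40 ± 0.31 (adjusted p = 1.1e-04). Lta, which encodes lymphotoxin alpha, was lower by −1.61 ± 0.15 (adjusted p = 3.5e-04), Cd70 differed by −0.33 ± 0.15 (not called), Cd40lg by 0.38 ± 0.13 (adjusted p = 0.054), and Eda, which encodes ectodysplasin, was higher by 0.45 ± 0.12 (adjusted p = 0.022). Among the receptors, Cd27, found on T cells, was at −1.88, −1.95, −1.68 and −1.87 in BAT, against 2.98, 1.51, 2.09 and 2.20 in sWAT. Its difference was −4.04 ± 0.22 (adjusted p = 5.3e-05), second only to Tnfrsf13c among the superfamily receptors measured. Relt was lower by −0.46 ± 0.12 (adjusted p = 0.025), whereas Ltbr (0.60 ± 0.28), Eda2r (0.39 ± 0.18) and Edar (0.31 ± 0.12) were not called.

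Ligands and their own receptors did not always move together. Of 20 pairs known to bind, both partners were lower in 3, the ligand alone was lower in 5, the receptor alone was lower in 5, neither was called in 4 and 1 had a lower ligand and a higher receptor. The other 2 held Eda, which was higher, with receptors not called. Of all genes taken singly, 17.5% were lower and 21% were higher, and several genes stand in more than 1 pair. The 3 pairs with both partners lower joined Tnfsf13b with Tnfrsf13b, Tnfrsf13c or Tnfrsf17. These 3 share 1 ligand, whose own probe sets ran from −2.37 to 0.07, so they are not separate cases. The 20 pairs do not hold every known binding, and Lta (−1.61) and Tnfrsf14 (−1.33), which bind each other in human but are not among them, were also both lower. Of the 5 pairs with the receptor alone lower, 1 joins Tnf with Tnfrsf1b, whose gene value gives no direction. Tnfsf11 was lower by −1.82, while its receptors Tnfrsf11a (−0.07, adjusted p = 0.70) and Tnfrsf11b (−0.10, adjusted p = 0.52) were not called. Ltb was lower by −4.40, with Ltbr not called at 0.60 (adjusted p = 0.13). The opposite arrangement was seen for Cd40, lower by −2.39 with Cd40lg at 0.38, for Cd27, lower by −4.04 with Cd70 at −0.33, and for Tnfrsf4, lower by −1.55 with Tnfsf4 at −0.16. In Tnfsf8 and Tnfrsf8 the ligand was lower and the receptor higher, with the receptor's call open to the replicate left out. These are each gene's own differences, and no test of one partner against the other was made.

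**Figure D4:**
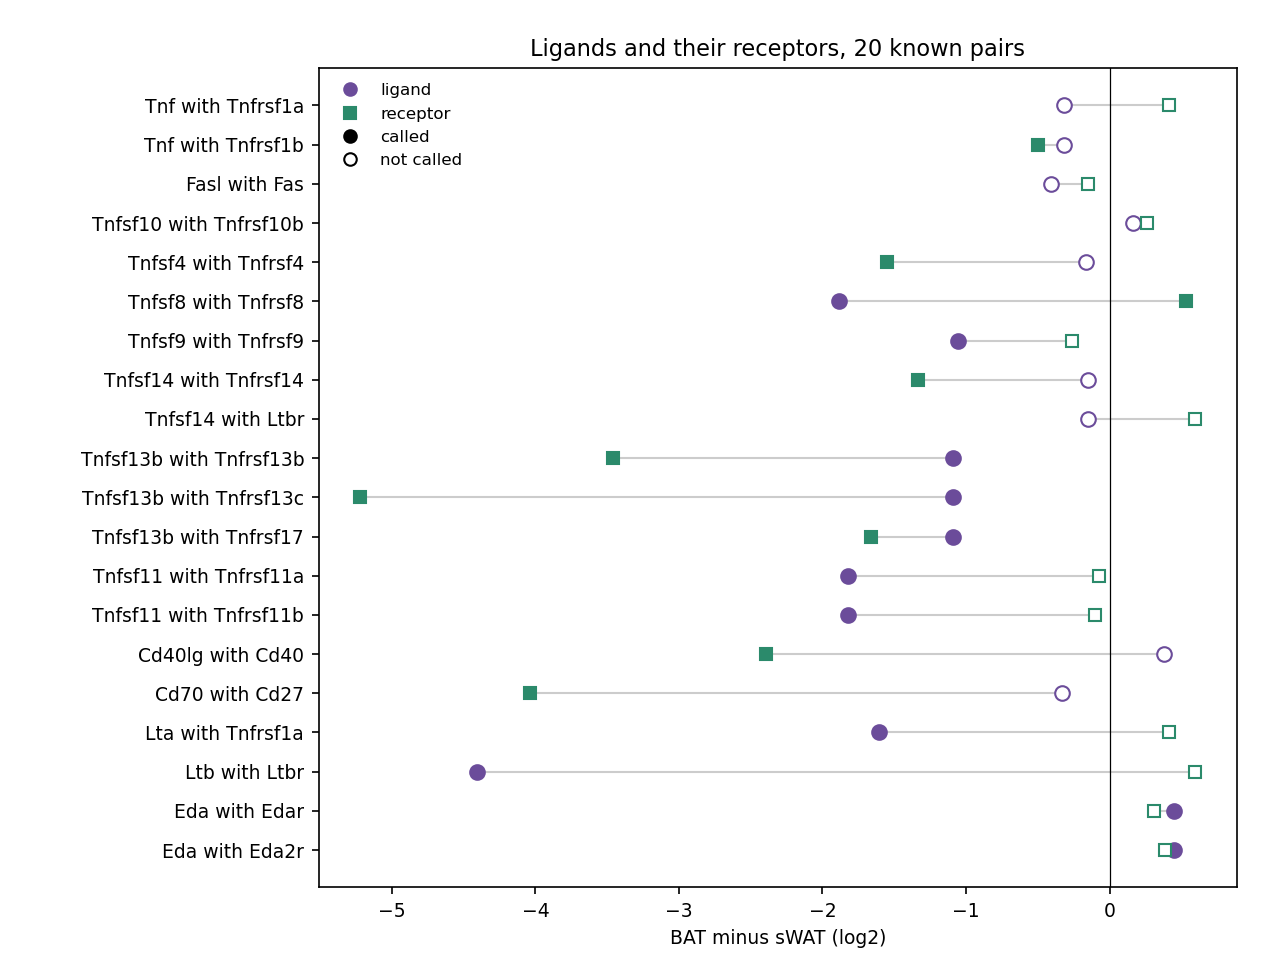
Difference between BAT and sWAT in log2 units (x axis) of the ligand (circle) and the receptor (square) of 20 pairs known to bind, filled where the gene was called. Tnfsf13b lies left of zero together with each of its 3 receptors, while Tnfsf11 and Ltb lie left of zero with open squares for their receptors.

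The adaptors and the NF-kB pathway below the receptors were lower in most called members. Of 16 TRAF, death domain and associated genes measured, 9 were lower, 1 was higher and 6 were not called, with a median of −0.44. Over all genes, 17.5% were lower and 21% were higher. Traf1, an adaptor that NF-kB itself induces, was at −1.78, −1.87, −1.78 and −1.61 in BAT, against 1.47, 1.56, 1.57 and 1.59 in sWAT. With replicates this close its difference was −3.31 ± 0.11 (adjusted p = 2.0e-05). Traf3ip3, known from lymphocytes, was lower by −2.87 ± 0.12 (adjusted p = 2.7e-05). Traf4 was the member that was higher, by 0.65 ± 0.13 (adjusted p = 0.0088). Of 16 NF-kB kinases, subunits and inhibitors, 10 were lower, 1 was higher and 5 were not called, against the same shares, with a median of −0.78. Nfkbie, which encodes the inhibitor IkB epsilon, was lower by −3.07 ± 0.15 (adjusted p = 3.8e-05). Relb, the subunit of the noncanonical pathway, was lower by −1.62 ± 0.40 (adjusted p = 0.018), although sWAT replicate 3 at −0.23 lay below BAT replicate 4 at 0.00. Ikbkg, which encodes NEMO, was higher by 0.46 ± 0.12 (adjusted p = 0.022). Among 4 proteases that cut ligands or their activators, Adam17 (−0.77 ± 0.17, adjusted p = 0.013) and Adam10 (−0.73 ± 0.17, adjusted p = 0.016) were lower, Furin (0.77 ± 0.23, adjusted p = 0.037) was higher and Mmp7 (0.34 ± 0.17) was not called.

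Markers of lymphocytes and of lymphoid tissue moved in the same direction as the 12 members at least 2-fold lower. The counts below stand against 17.5% of all genes lower in BAT and 21% higher. All 11 B cell markers measured were lower in BAT, with list means of −2.11 to −1.67 in BAT replicates, against 1.83 to 2.52 in sWAT replicates. Ms4a1, which encodes CD20, differed by −6.54 ± 0.25 (adjusted p = 2.1e-05). Of 13 T cell markers, 12 were lower and Cd4 was not called, with list means of −1.43 to −0.83 in BAT, against 1.30 to 2.02 in sWAT. Cd3d, a chain of the T cell receptor complex, differed by −4.13 ± 0.22 (adjusted p = 4.9e-05). All 7 plasma cell markers were lower, with Tnfrsf17 among them, at list means of −1.22 to −0.79 in BAT, against 0.89 to 1.25 in sWAT. Of 8 markers of the stroma and high endothelial venules of lymph nodes, 7 were lower, and Glycam1, a mucin of those venules, differed by −7.91 ± 0.15 (adjusted p = 2.3e-06). Macrophage markers were less uniform, with 6 of 10 lower and 1 higher, and list means of −1.02 to 0.26 in BAT, against 0.13 to 0.76 in sWAT. Skeletal muscle fibre markers were higher in BAT in 10 of 10, with list means of 2.28 to 3.98 in BAT, against −2.13 to −1.70 in sWAT. The part of these cell types in the values of the superfamily was not tested. The values are relative to a median, so they cannot show whether a marker was at zero in either tissue.

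**Figure D5:**
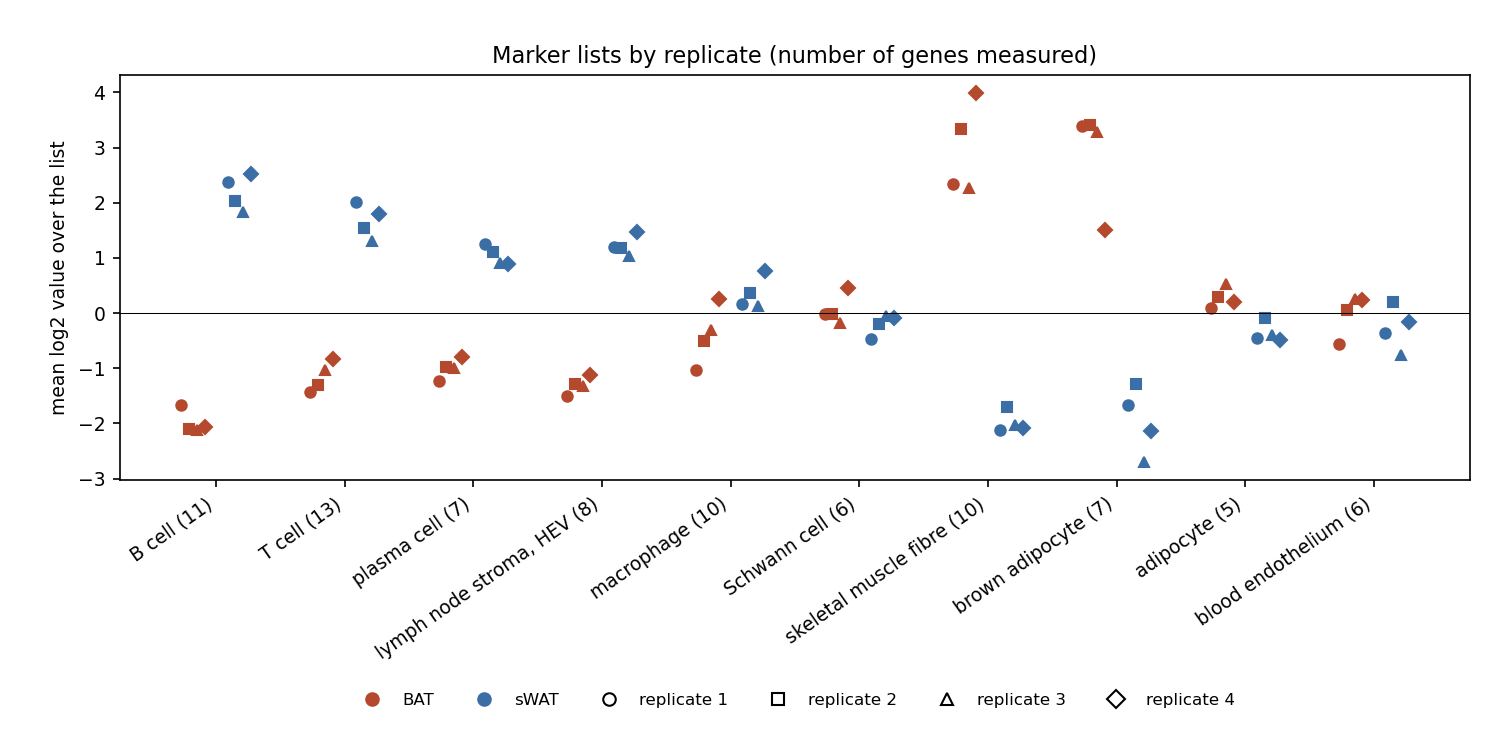
Mean log2 value over the measured genes of 10 marker lists (y axis) in each BAT replicate (red, left) and each sWAT replicate (blue, right), with the number of genes in brackets. The B cell, T cell, plasma cell and lymph node lists lie lower in all 4 BAT replicates than in all 4 sWAT replicates, while muscle fibre and brown adipocyte lists lie the other way.

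Within BAT, replicate 4 was the highest of the 4 samples in 7 of the 12 members at least 2-fold lower and the lowest in 4. In sWAT, replicate 3, which holds an array of low 5′ signal, was the lowest in 6 of the 12. The mean over the 12 genes nevertheless ranged only from −1.07 to −0.78 over the BAT replicates, against 1.0 to 1.42 over the sWAT replicates. Taken array by array, the 8 BAT arrays lay under the 8 sWAT arrays in 10 of the 12. The exceptions were Tnfsf8, with BAT arrays up to 0.07 and sWAT arrays down to −0.13, and Tnfrsf14, with BAT arrays up to 0.04 and sWAT arrays down to −0.37. The 12 were chosen by their difference in these same arrays, so this separation is no further support. The 2 arrays of a replicate are also not independent. All 12 stayed called when any replicate number was left out, with a highest adjusted p of 0.012. With the methods' t-test over 4 pairs, the adjusted p was 0.058 for Tnfsf9, 0.055 for Tnfrsf17 and 0.056 for Tnfrsf14, which ended those 3 calls.

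Some members lie side by side in the genome. On chromosome 17, Ltb, Tnf and Lta follow one another, and they differed by −4.40, −0.32 and −1.61. Tnfsf9, Cd70 and Tnfsf14, also neighbours on chromosome 17, differed by −1.06, −0.33 and −0.15. On chromosome 4, the neighbours Tnfrsf4 (−1.55) and Tnfrsf18 (−2.60) were both lower. The neighbours Tnfrsf1b (−0.50, a mean of opposite probe sets) and Tnfrsf8 (0.53), also on chromosome 4, differed in sign. On chromosome 6, Cd27 (−4.04) was lower, while the nearby Ltbr (0.60) and Tnfrsf1a (0.41) were not called.

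Promoter windows of 300 bases, 250 before and 50 after the start, were at hand in RefSeq for 25 of the 32 members. The NF-kB consensus, searched on both strands, was found in windows of 3 of the 25, namely Tnfrsf25, Tnfrsf9 and Tnfrsf8, against 9.55% of 27025 genes with such a window. Of the 10 matched members at least 2-fold lower in BAT, 1 held it, and of the other 15, 2 did. The octamer ATGCAAAT, a motif of B cell promoters, searched on both strands, was in none of the 25, against 1.97% of all genes. The windows of Tnfrsf25, lower in BAT, and Tnfrsf9, not called, are shown because both carry the NF-kB consensus and differ in their result. Capitals mark the match, whose first base is at −28 from the start in Tnfrsf25, at chr4:152116193-152116342 on the plus strand. In Tnfrsf9, at chr4:150927849-150927998 on the plus strand, 2 overlapping matches have their first bases at −43 and −42. The Tnfrsf25 window holds a second match after the start, outside the bases shown. Tnfrsf25 and Tnfrsf9 each have another RefSeq start, and its window held no match. A match is a description of the sequence and does not show binding.
Tnfrsf25: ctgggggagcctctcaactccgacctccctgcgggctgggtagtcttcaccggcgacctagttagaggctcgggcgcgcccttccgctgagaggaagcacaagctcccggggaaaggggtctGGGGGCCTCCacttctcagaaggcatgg
Tnfrsf9: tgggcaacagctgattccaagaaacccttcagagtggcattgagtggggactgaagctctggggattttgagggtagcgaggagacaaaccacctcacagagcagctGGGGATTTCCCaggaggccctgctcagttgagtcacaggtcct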

How the data were processed

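RNA from interscapular BAT and subcutaneous WAT of LACA mice had been hybridized to 16 Affymetrix mouse genome arrays, 4 replicates per tissue with 2 arrays each. The authors deposited log2 values made by RMA with quantile normalization in GeneSpring GX 12.1 and a baseline transformation to the median of all samples, so every probe set has a median of 0 and no level or detection can be read. The annotation names 1 gene for 34958 of 45101 probe sets, several for 932 and none for 9211, and only the first were used for the 18194 genes. The 2 arrays of a replicate were averaged, since they are not independent. BAT minus sWAT was fitted with limma 3.58.1 (lmFit and eBayes, R 4.3.3), blocking on the replicate number because the methods use a paired test. Benjamini-Hochberg adjustment ran over all genes, or for single probe sets over all probe sets. The labels do not tie a number to an animal, and Xist is high in BAT but not in sWAT for numbers 1 to 3, so the block was also left out. The fit was tested on simulated data. The 4 replicates per tissue limit the precision. The p-values rest on the spread left between these samples after the block, drawn towards a value shared by all genes. Every member is named with its difference. Values in every replicate are given for members called at a fold of at least 2 and, in ligands and receptors, for the 3 called members of smallest fold or the 3 not called with the largest difference. Of the pathway lists, the 2 called members with the largest difference in each direction, partners of members and defining markers are named. Members, lists and tests were chosen with earlier results of these data known. Several listed genes without a probe set of their own, such as Traf3 and Nfkb1, were not analysed here. Promoter sequences came from RefSeq (GRCm38.p6), the NF-kB consensus being one of 10 bases with variable positions. Alternatives were the fit without the block, either set of arrays, no arrays of low 5′ signal, each replicate left out, replicate 4 alone, other scalings, the methods' t-test over 4 pairs and over 8 pairs of arrays, other probe sets and a filter on variance. Figures were drawn with matplotlib 3.10.9.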

Additional observations from a re-analysis of the deposited data

Results flagged for a closer look

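In 6 of 64 sets of 4 replicates over the 32 members, 1 sample stood apart from the other 3 by Dixon's test, where chance gives about 1 in 20. Tnfsf9 had 2 of these, BAT replicate 2 at −0.43, above the other BAT samples at −0.55 to −0.54, and sWAT replicate 1 at 1.10, above the other sWAT samples at 0.30 to 0.38. BAT replicate 4 was the highest BAT sample in Cd40, at −0.62 against −1.45 to −1.33 in the others, and in Tnfrsf4, at −0.21 against −0.62 to −0.55. In Tnfrsf17, sWAT replicate 4 was the lowest sWAT sample at 0.40, with 1.14 to 1.24 in the others. In Tnfsf13os, sWAT replicate 1 was the lowest at −0.15, with −0.07 to −0.06 in the others.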

How the results depend on the processing

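The 12 members at least 2-fold lower in BAT were negative in all 180 values of the settings with a test and called in 177. Both counts include the main fit, by which the 12 were chosen, so its values were fixed in advance. The 3 exceptions, Tnfsf9, Tnfrsf17 and Tnfrsf14, came from the methods' t-test over 4 pairs, and Tnfsf9 was under 2-fold without replicate 1. The number of receptors called higher, 2, was 1 with the first arrays alone (Tnfrsf12a, with Tnfrsf8 and Tnfrsf19 both lost), 1 with the second arrays alone, with each array centred on its median and with the methods' t-test over 4 pairs (Tnfrsf19), 1 without the genes of lowest variance (Tnfrsf8), 0 with arrays scaled to Gapdh and Actb and 0 to 1 with a replicate left out. Calls were also gained. Without the arrays of low 5′ signal these were Tnf, Tnfsf13os, Tnfrsf9 and Tnfrsf12a, and without replicate 3 Tnfsf13os. Tnfrsf9 was gained without the block and with each array centred on its median. The t-test over 8 pairs of arrays added Tnf, Tnfsf13os, Tnfrsf9 and Tnfrsf10b. It counts the 2 arrays of a replicate as independent, which they are not, so its calls carry less weight. Over all genes, 6989 were called, against 3771 with the scaling to Gapdh and Actb, 3567 with the t-test over 4 pairs and 4627 to 6766 with a replicate left out, lowest without replicate 2, and 9741 with the t-test over 8 pairs of arrays and 8953 without the arrays of low 5′ signal. Over all probe sets, 14605 were called, against 8927 with that scaling and 5116 with that t-test, 20617 with 8 pairs and 19143 without the low 5′ arrays, and at 2-fold 7064, against 3388 with that t-test. Of the members not called, 4 turned sign in settings with a test: Fas (−0.33 to 0.016 with a replicate left out, the highest without replicate 1), Tnfrsf21 (0.070 with the first arrays, 0.066 without probe sets of shared sequence and −0.27 to 0.092 with a replicate left out, the highest without replicate 1), Tnfrsf11a (4.3e-04 without arrays of low 5′ signal and −0.22 to 0.0078 with a replicate left out, the highest without replicate 4), and Tnfrsf23 (−0.0048 with the first arrays, −0.045 with each array centred on its median and −0.11 to 0.15 with a replicate left out, negative without replicate 1 or 2). In replicate 4 alone, which has no test, Fas was at 0.41, Fasl at 0.11, Ngfr at −0.01 and Tnfrsf23 at −0.06, each on the other side of zero. The causes were not tested. Same-numbered samples of the 2 tissues correlated at −0.15, 0.08, −0.34 and 0.26 in their deviations from the group means, so the numbers do not pair the samples by these data. Without the replicate block, 8573 genes were called and 2739 at 2-fold (2753 with it), all 12 members stayed called and Tnfrsf9 was added (adjusted p = 0.029), so that 10 receptors were lower. The filter on variance kept 24 of the 32 members.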
